A study of Mus musculus with 16 samples.

Results

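The effect of an antibody against PDGFcc was examined in the fat of mice on a high-fat diet, by setting 4 antibody libraries against 4 untreated libraries. These 8 libraries are all those labelled with the high-fat diet among the 16 in the series, and every gene in the table was considered. The mice were C57BL6/J and the tissue was inguinal white fat, the subcutaneous depot of the groin. The antibody (AF1447) was injected into the peritoneum of 6-week-old mice once every 2 days over 2 weeks, each dose being 50 mg/kg in PBS. The untreated group had the high-fat diet and no antibody. Whether these mice had a control injection, how long the diet lasted and at what hour fat was taken is not stated in the labels. The other 8 libraries, with and without antibody on a control diet, served for the estimate of spread and for a comparison of directions. RNA was taken up in TRIzol, purified with a kit for lipid-rich tissue, selected for poly-A and made into stranded libraries, each sequenced on several lanes.

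PDGF-CC is a growth factor secreted in a latent form, which proteases such as tissue plasminogen activator (gene Plat) cut to free its active domain. The active dimer binds the receptor tyrosine kinase PDGFRA, which in fat is carried by the stromal cells that give rise to adipocytes. Signalling through that receptor is known to favour stromal growth and matrix production over adipocyte differentiation. In bulk tissue such as this, fewer cells of a type and less RNA per cell cannot be told apart.

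The labelled tissue matched its markers. The adipocyte gene Adipoq lay between 84571 and 97146 normalized counts in the 8 libraries, and the lipid droplet gene Plin1 between 40527 and 63036. B cell genes Cd79a and Ms4a1 were too low to be tested. Markers of mammary epithelium (Krt5, Krt14, Krt8, Epcam, Csn3) and mesothelium (Msln, Upk3b) were not found among the genes listed, so these tissues could not be checked by them. The test covered 14189 of 16091 genes, the other 1902 being low. The 8 libraries summed to between 24.02 and 24.53 when counted in units of 1e6. Across genes, which are not independent replicates, log2 values of libraries of 1 group correlated at r = 0.9499 to 0.9905 among the untreated and 0.9788 to 0.9879 among the antibody libraries. Principal components were taken from the genes outside the skeletal muscle list. On the first component (42% of the variance) untreated replicate 2 stood apart (51.62, the other 7 libraries between -25.78 and 21.13). That library also held the most muscle RNA. Untreated replicates 3 and 4 stood apart on the second (29.18 and 23.29, the others at most 10.33; 20.3%) and held the most immediate early and heat shock RNA.

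With the antibody 5 genes rose and 6 fell on the high-fat diet. The genes that fell were Zbtb16, Cdkn1a, Tppp3, Kcna1, Elmod1 and Gm15459, and those that rose were Bahcc1, Mecom, Wdr6, Alox12 and BC037039. The largest fall was that of Zbtb16, a zinc finger transcription factor induced by glucocorticoids and progesterone, to a level 4.88-fold lower. The threshold was an adjusted p under 0.05 (limma, Benjamini-Hochberg over all genes tested), and 0.0775% of tested genes passed it, 0.0352% as higher and 0.0423% as lower. In none of the 11 did the 4 antibody libraries overlap the 4 untreated ones, a pattern that 3.91% of tested genes showed upwards and 3.47% downwards. None of the 11 is on the list of skeletal muscle genes.

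Zbtb16 (ENSMUSG00000066687, GRCm38 chr9:48654297-48836222, minus strand) stood at 5104, 6205, 3289 and 2840.2 normalized counts in untreated replicates 1 to 4. The antibody replicates 1 to 4 had 841, 657, 956 and 1117. Every antibody library was thus less than the lowest untreated one, and the untreated libraries were the more spread (SD 1572 against 194, n = 4 each). The log2 change was -2.24 ± 0.27 (SE; adjusted p = 0.00623, limma). Its call held with each of the 16 libraries left out in turn (adjusted p up to 0.0416, limma). It ended when the muscle score entered the model (adjusted p = 0.292) and with a replicate block on the 8 libraries (adjusted p = 0.0789).

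Cdkn1a (chr17:29090976-29100727, plus strand) codes for p21, an inhibitor of cyclin-dependent kinases that holds cells out of the cycle. Untreated replicates 1 to 4 had 959, 1238, 1507 and 1658 normalized counts and antibody replicates 512, 322, 717 and 347. The groups did not overlap, and the gene fell by 1.54 ± 0.25 on the log2 scale (adjusted p = 0.0352, limma). Tppp3 (chr8:105467493-105471526, minus strand), a tubulin-binding protein found in stromal and tendon sheath cells, went from 1691, 2597, 2816 and 3539 to 1332, 1216, 1008 and 943. Untreated replicate 1 lay closest to the antibody libraries, and the log2 change was -1.21 ± 0.20 (adjusted p = 0.0375, limma).

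Kcna1 (chr6:126640397-126646384, minus strand) codes for a voltage-gated potassium channel of myelinated axons. It was at 103, 89.1, 87.2 and 107 without antibody and at 41, 30.3, 23 and 48.7 with it. These levels are a few CPM-equivalents, and the antibody libraries were all lower, by a log2 change of -1.46 ± 0.24 (adjusted p = 0.0352, limma). Elmod1 (chr9:53911457-53975301, minus strand), a regulator of ARF-type GTPases, had the second largest fall of the 6. It had 43.5, 36, 38.2 and 40.3 normalized counts without antibody and 6.66, 9.79, 10.6 and 11.8 with it, a log2 change of -1.94 ± 0.28 (adjusted p = 0.0286, limma). Its antibody values lie below 24.49, the value used as 1 CPM-equivalent. The processed pseudogene Gm15459 (chr5:5781615-5783555) fell from 175 ± 32.3 to 94.5 ± 9.7 (SD, n = 4). Reads of a processed pseudogene may belong to its parent gene, so its value is uncertain.

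The 5 genes that rose include 3 tied to chromatin, transcription or RNA. Bahcc1 (chr11:120232947-120292296, plus strand), a chromatin reader of the mark H3K27me3, was at 1206, 1226, 1062 and 1280.1 without antibody and at 2174, 2418, 2357 and 2564 with it. The 2 groups were each tight and far apart, 1.99-fold, with a log2 change of 0.995 ± 0.15 (adjusted p = 0.0344, limma). Mecom (chr3:29951296-30548008, minus strand), a zinc finger factor of the PRDM family, rose from 234, 209.6, 158 and 164 to 296, 320.1, 354 and 446 (log2 change 0.89 ± 0.14, adjusted p = 0.0352). Wdr6 (chr9:108572311-108578739, minus strand), a partner in tRNA methylation, rose from 1503, 1093, 891 and 981 to 1702, 1776, 1818 and 1949 (0.72 ± 0.12, adjusted p = 0.0352). Its exons overlap those of Dalrd3 on the opposite strand, so the value is uncertain if reads were not counted by strand.

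Alox12 (chr11:70241457-70255353, minus strand), the 12-lipoxygenase that oxidizes arachidonic acid, had 51.7, 38.9, 38.2 and 33.1 without antibody. With antibody it had 101, 94, 79.9 and 158, a log2 change of 1.37 ± 0.23 (adjusted p = 0.0375, limma). Antibody replicate 4 was the highest and the groups did not overlap. BC037039, an antisense transcript whose exons overlap Pcdhgc3, rose from 34.6 ± 2.98 to 79.4 ± 14.5 (SD, n = 4), with antibody replicate 3 below the other antibody libraries (57.7 against 85.8 to 87.9).

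**Figure D1:**
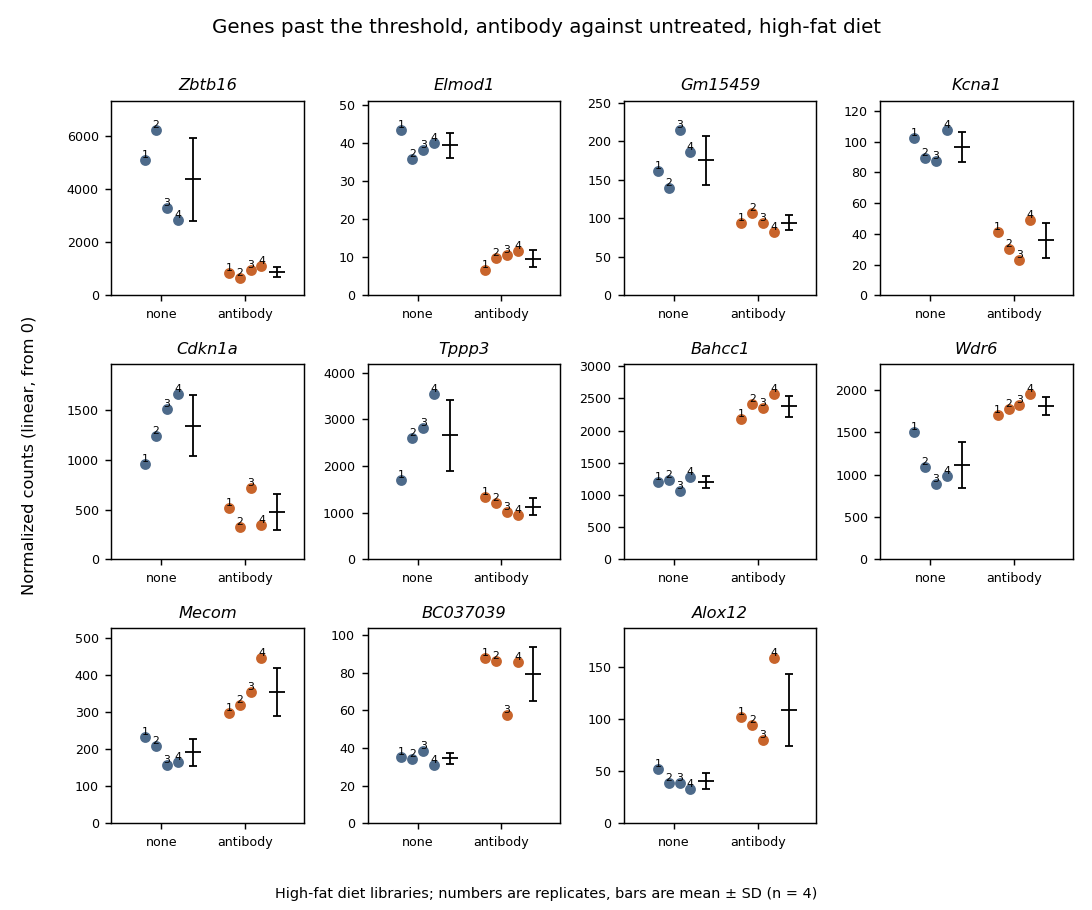
Normalized counts (vertical axes, linear from 0) of the 11 genes past the threshold in untreated and antibody libraries on the high-fat diet. Points are libraries with their replicate numbers and bars are mean ± SD (n = 4). In every panel the 4 antibody points lie beyond the 4 untreated points, as for Zbtb16 with 657 to 1117 against 2840.2 to 6205.

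How many genes passed depended on single libraries. The count was 271, 6, 1 and 1 without untreated high-fat replicates 1 to 4, and 1, 4 and 3 without antibody replicates 2, 3 and 4. Without untreated replicate 1, 271 of all 14189 tested genes passed, and the calls reached lists that otherwise had none. Among them were 6 of 81 muscle genes (Skeletal muscle), 5 of 22 of the list Heat shock and unfolded protein response and 4 of 25 of Chemokines, cytokines and acute phase. So were 3 of 25 of Macrophage and 3 of 25 of Adipogenic transcription factors. No list was tested as a set, and the lists were chosen with earlier results of these data known. Control-diet libraries enter only through the spread, and leaving out untreated replicates 1, 2 and 3 there gave 70, 1 and 51, and antibody replicates 2 and 3 gave 1 and 2. With quantile normalization 11 genes were higher and 4 lower, and with totals taken without the 10 most abundant genes 11 were higher and 6 lower. With only the 8 high-fat libraries in the fit 4 passed, and without untreated replicates 3 and 4 together 1 did. With the muscle score as a covariate 0 passed by limma, with 638 higher and 571 lower at an unadjusted p under 0.05. The 11 genes kept their direction in each of these fits. Without the covariate 932 genes were higher at that level (6.57% of those tested) and 982 lower (6.92%).

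Skeletal muscle RNA was lower in most antibody libraries, with 0 genes past the threshold by limma, and is kept apart here because its content differed between libraries. The muscle list genes, 81 tested and 6 too low to be tested, made up 0.0573%, 3.73%, 0.144% and 0.182% of the total in untreated replicates 1 to 4. In antibody replicates 1 to 4 they made up 0.0161%, 0.077%, 0.0216% and 0.0231%. Untreated replicate 1 was below antibody replicate 2, so the groups overlapped, and untreated replicate 2 was far above all others. The median log2 change of the list was -3.50 against 0.0003 over all genes tested, 68 genes were lower at an unadjusted p under 0.05 and 2 higher, and in 19 the groups did not overlap. Without untreated replicate 2 the median was -2.36 and 52 genes were lower at that level. With all libraries kept, 6.92% of all genes tested were lower at that level and 3.47% lay wholly below.

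In Trim63, Rpl3l and Cacna1s untreated replicate 2 was likewise the highest library. The muscle marker Myh1 was instead highest in untreated replicate 3 (26.1, 209, 456 and 44.6 in untreated replicates 1 to 4). Trim63, a ubiquitin ligase of the sarcomere, was at 12.7, 631, 35.1 and 36.3 without antibody, and with it at 6.92 in replicate 2 and listed at 0 in the other 3 libraries. Rpl3l, the muscle form of a ribosomal protein, had 19.9, 1007, 60.6 and 34.3 without antibody and 13.8 or less with it. Cacna1s, the calcium channel of the muscle triad, had 33.4, 3157, 113 and 126 against 2.56, 32.5, 0.883 and 4.7. The fourth gene that the naming rule takes, Xirp1, overlapped between the groups (12.6 to 239 against 4.76 to 12.8). On the control diet the order was the reverse: 63 of 81 muscle genes were higher with antibody at an unadjusted p under 0.05 and the list median was 2.998 (6.33% of all genes tested were higher there and 5.31% lower).

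**Figure D2:**
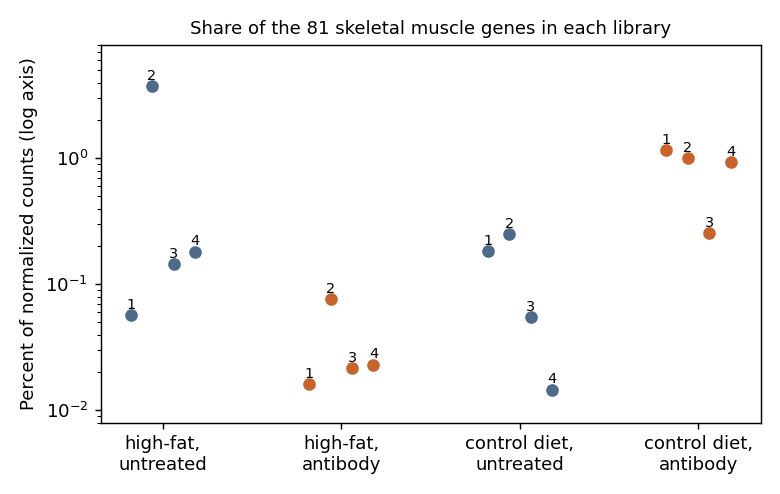
Percent of all normalized counts taken by the skeletal muscle list (log axis) in each library, by diet and treatment, with replicate numbers. The share counts the 81 tested genes and 6 too low to be tested. On the high-fat diet the untreated libraries reach 3.73% and the antibody libraries 0.077%, while on the control diet the antibody libraries are higher.

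Among genes outside the muscle list with a mean of at least 4 CPM-equivalents in 1 group, groups that did not overlap and an unadjusted p under 0.01, 213 were higher and 160 lower. Of the 12 of these with the lowest log2 changes, 9 followed muscle RNA: Ckmt2, Ano5, Scn4a, Asb11, Kcnj11, Txlnb, Pdlim3, Alpk3 and Cap2. Their log2 changes ran from -5.38 (Ckmt2, mitochondrial creatine kinase) to -1.98 (Cap2), with adjusted p of 0.144 to 0.188. In the 8 control-diet libraries, which take no part in this contrast other than through the spread, their log2 values correlated with the muscle score at r = 0.863 to 0.994, a description given without a test. Scn4a, the sodium channel of muscle fibres, shows the shared pattern: 22, 1659, 63.5 and 80.8 without antibody and 2.77, 13.8, 0.906 and 7.58 with it.

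After genes that followed the muscle score at r over 0.7 on the control diet were left out, a choice made after seeing the data, 10 of the 160 were removed. The 12 lowest of the rest held genes of hormone response, inflammation, matrix and the clock, of which Zbtb16 and Cdkn1a passed the threshold. Alkal2, a ligand of the receptor ALK, had 158, 235, 182 and 264 without antibody and 59.1, 59.7, 76.2 and 48.8 with it (log2 change -1.75 ± 0.37, adjusted p = 0.0665, limma). Its lowest untreated library was above its highest antibody library by a wide margin. Ms4a4a, a membrane protein of macrophages, had 331, 591, 1228 and 992 against 293, 201, 228 and 213 (-1.59 ± 0.31, adjusted p = 0.0638). Untreated replicates 3 and 4 were the high ones.

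The others of these 12 spread over several roles. The chemokine Cxcl14 had 1054, 1484, 1490 and 1239.9 against 392, 543, 794 and 317 (-1.44 ± 0.29, adjusted p = 0.0638, limma). The aggrecanase Adamts4 was at -1.44, the hypoxia factor Hif3a at -1.41, the steroid sulfate transporter Slc10a6 at -1.38, the clock gene Arntl at -1.36 and the actin-binding Fam107a at -1.30. The interferon-inducible Ifi205 was at -1.24 and Fkbp5, a co-chaperone of the glucocorticoid receptor, at -1.23. In these genes the groups did not overlap and the adjusted p lay between 0.0638 and 0.16.

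Of the 12 genes with the highest log2 changes by the same rule, only Alox12 passed the threshold. Rasl12, a small GTPase, was at 2259.9, 1401, 859 and 1354 against 3188, 4089.5, 3755 and 3269 (log2 change 1.36 ± 0.26, adjusted p = 0.0638, limma). Tnk2, a non-receptor tyrosine kinase, was at 1495, 1250, 712 and 1045 against 2095, 2577, 2669.5 and 1828 (1.06 ± 0.19, adjusted p = 0.0597). Untreated replicate 3 was the lowest library for both genes.

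The rest were secreted or membrane proteins and regulators. Gdf5, a bone morphogenetic protein family ligand, had 48.6, 47.5, 25.4 and 33.1 against 102, 138, 85.7 and 79.5 (1.38 ± 0.25, adjusted p = 0.0601, limma). Adamts6, a matrix protease, was at 1.31, the cartilage protein gene Crtac1 at 1.55 and the kinase-like Dipk1b at 1.25. Plekhg6, Hlf, Paqr9 and Hr were at 1.17, 1.16, 1.14 and 1.04. Hlf is a clock output factor, Paqr9 a progestin and adiponectin receptor family member and Hr a nuclear receptor corepressor. Adjusted p of these 7 lay between 0.0638 and 0.176.

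Genes that respond to glucocorticoids were mostly lower with the antibody. Of 25 tested, 1 fell (Zbtb16), 21 had a log2 change below 0 (49.9% of all genes tested did), and 14 were lower and 0 higher at an unadjusted p under 0.05. In 7 all antibody libraries lay below all untreated ones, and the median log2 change was -0.56. Among all genes tested 6.92% were lower at an unadjusted p under 0.05, and 3.47% lay wholly below. Fkbp5 had 2394, 4485, 4623 and 3597 without antibody and 1160.5, 1802, 2389 and 1190.4 with it. The groups just missed each other, with antibody replicate 3 next to untreated replicate 1 (-1.23 ± 0.30, adjusted p = 0.113, limma). Klf15, a transcription factor of metabolism, was at -0.58 ± 0.14 (adjusted p = 0.0905). Nr3c1, the gene of the glucocorticoid receptor itself, went the other way, from 4402, 4386, 4440.4 and 4166 to 5478, 5584, 5366 and 4973 (0.30 ± 0.05, adjusted p = 0.0638). On the control diet 1 gene of the list was higher and 2 lower at an unadjusted p under 0.05, with a median of 0.07. Without untreated replicates 3 and 4 the high-fat median was -0.41 and 9 genes were lower, and adding the muscle score to the model gave -0.35 and 7.

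**Figure D3:**
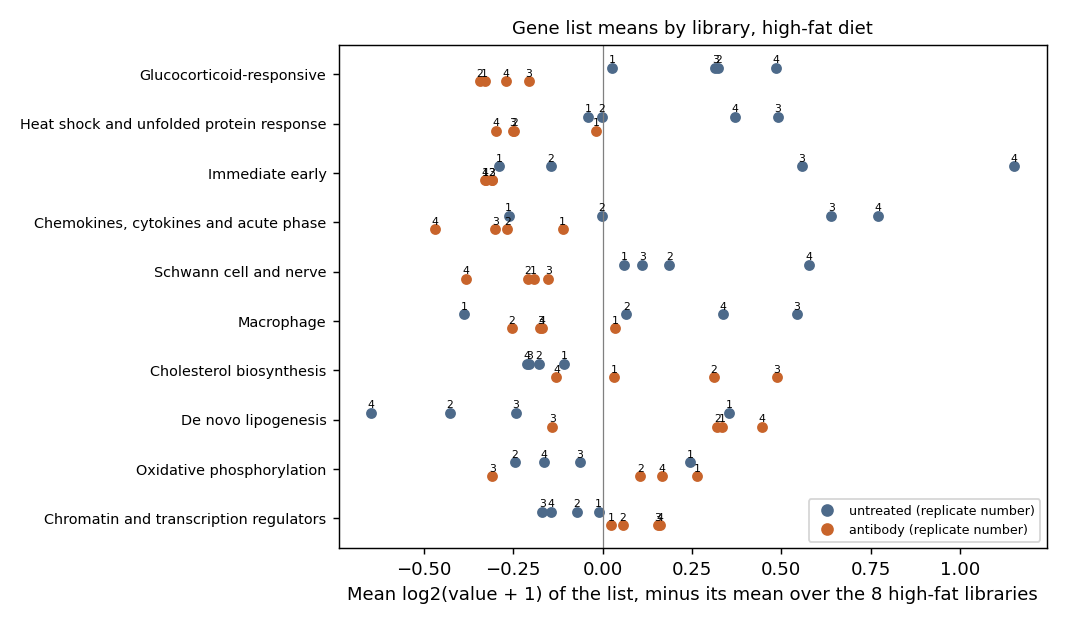
Mean log2(value + 1) of 10 gene lists in each of the 8 high-fat libraries, as the deviation from the mean of those libraries (horizontal axis), with replicate numbers. The glucocorticoid, immediate early, nerve and chromatin lists do not overlap between the groups. Of the lists not drawn, neither do the B cell, lymphatic endothelial and housekeeping lists (housekeeping 0.021 to 0.045 against -0.083 to -0.011). For immediate early genes untreated replicate 1 (-0.29) lies next to the antibody libraries (at most -0.309), and untreated replicates 3 and 4 lie furthest right (0.557 and 1.152).

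Chaperones were lower in the antibody libraries, most of all against untreated replicates 3 and 4. Heat shock proteins keep other proteins folded in the cytosol, and their partners in the endoplasmic reticulum are induced when unfolded proteins build up there. Of 22 tested genes 0 passed the threshold by limma, 19 were below 0, 12 were lower and 0 higher at an unadjusted p under 0.05, and in 5 the antibody libraries all lay below (median -0.40). Over all genes tested 6.92% were lower at that level, and 3.47% lay wholly below. Hsph1, a nucleotide exchange factor of HSP70, had 1101, 1428, 2110.1 and 1859 without antibody and 823, 712, 794 and 586 with it (-1.12 ± 0.23, adjusted p = 0.0661, limma). The constitutive HSP70 Hspa8 had 13505, 15800, 22284 and 22310 against 12428, 11260, 10496 and 11224 (-0.67 ± 0.17, adjusted p = 0.111). The small heat shock protein Hspb1 was at -0.75 ± 0.19 (adjusted p = 0.123). For all 3, untreated replicate 1 was the untreated library closest to the antibody group. Without untreated replicates 3 and 4 the list median was -0.15 and 4 genes were lower at an unadjusted p under 0.05.

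Among the chaperones of the endoplasmic reticulum, Hspa5 (also called BiP; chr2:34771970-34777547, plus strand) had 11780, 14087, 22198 and 19096 without antibody and 10216, 10522, 10347 and 8898 with it. The groups did not overlap (-0.71 ± 0.15, adjusted p = 0.0769, limma). The promoters of 4 of the 19 genes of this list that have a RefSeq promoter entry (21 windows) hold the endoplasmic reticulum stress response element, searched as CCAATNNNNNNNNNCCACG on both strands in the 250 bases before the start. Of all 32851 such windows 0.113% hold it. They are shown because the element is known to bind the factors that raise these chaperones, and untreated replicates 3 and 4 were the highest libraries for all 4 genes. Capitals mark the element, letters are 5′ to 3′ in the direction of the gene, and the source is RefSeq on GRCm38.p6. Windows are chr2:34771840-34772089, plus strand (Hspa5), chr10:86705445-86705694, minus strand (Hsp90b1), chr12:17266339-17266588, plus strand (Pdia6) and chr8:84846932-84847181, minus strand (Calr).
Hspa5: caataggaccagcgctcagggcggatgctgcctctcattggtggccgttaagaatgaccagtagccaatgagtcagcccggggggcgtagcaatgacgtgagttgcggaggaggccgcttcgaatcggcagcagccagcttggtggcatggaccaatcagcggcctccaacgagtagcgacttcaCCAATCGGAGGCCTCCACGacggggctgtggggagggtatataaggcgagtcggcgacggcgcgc
Hsp90b1: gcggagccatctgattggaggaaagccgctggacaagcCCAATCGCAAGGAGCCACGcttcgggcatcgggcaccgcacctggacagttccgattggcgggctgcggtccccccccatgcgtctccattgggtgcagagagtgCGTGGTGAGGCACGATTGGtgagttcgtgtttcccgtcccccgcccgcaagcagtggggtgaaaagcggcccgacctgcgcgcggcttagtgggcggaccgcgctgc
Pdia6: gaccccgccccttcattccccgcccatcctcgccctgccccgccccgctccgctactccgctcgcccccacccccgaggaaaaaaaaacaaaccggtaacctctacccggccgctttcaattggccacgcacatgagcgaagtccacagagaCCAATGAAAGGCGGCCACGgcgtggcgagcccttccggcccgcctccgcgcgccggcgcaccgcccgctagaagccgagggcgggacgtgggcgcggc
Calr: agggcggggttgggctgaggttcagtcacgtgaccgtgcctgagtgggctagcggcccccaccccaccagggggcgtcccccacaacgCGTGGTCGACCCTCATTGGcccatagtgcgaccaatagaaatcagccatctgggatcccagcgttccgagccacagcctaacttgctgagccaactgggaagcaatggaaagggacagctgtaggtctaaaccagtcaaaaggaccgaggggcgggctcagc

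The other 3 genes shown were chosen after their values were seen. Hsp90b1, the HSP90 of the endoplasmic reticulum, had 12172, 12912, 21536 and 18193 without antibody and 12549, 11910, 10128 and 11097 with it (-0.47 ± 0.15, adjusted p = 0.189, limma). The disulfide isomerase Pdia6 was at -0.40 ± 0.13 (adjusted p = 0.19) and the calcium-binding chaperone Calr at -0.28 ± 0.14 (adjusted p = 0.422). In all 3 the groups overlapped, and untreated replicates 3 and 4 were above every antibody library. The heat shock element, searched as GAANNTTCNNGAA, was in 0 of the 21 windows and in 0.466% of all windows.

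Immediate early genes, which cells switch on within minutes of a stimulus or of handling, had the same high libraries. Of 19 tested 0 passed by limma, 18 were below 0, 7 were lower and 0 higher at an unadjusted p under 0.05, and in 0 did the groups stay apart (median -0.50). The share of all genes tested that was lower at that level was 6.92%. Nr4a1, an orphan nuclear receptor, had 137, 405, 458 and 1085 without antibody and 98.6, 136, 139 and 171 with it (-1.60 ± 0.42, adjusted p = 0.139, limma). Fos had 213, 189, 663 and 559 against 147, 224, 214 and 137 (-0.98 ± 0.35, adjusted p = 0.22). Untreated replicates 3 and 4 were the 2 highest in both genes. Without replicate 3 or replicate 4 of the untreated, 4 and 3 genes were lower at that level. Without both the list median was -0.17 and 1 gene was lower, and their part in the other results was tested only by leaving them out. On the control diet the list was higher with antibody (median 0.37, 17 of 19 above 0).

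Clock genes lay on both sides of 0. The clock is a loop in which the factors of Arntl, Clock and Npas2 drive period genes and output factors, which peak at another time of day. Of 21 tested genes 0 passed by limma, 6 were higher and 5 lower at an unadjusted p under 0.05, and the groups did not overlap in 3 upwards and 4 downwards (median 0.17). For all genes tested these shares were 6.57% and 6.92% at that level, and 3.91% and 3.47% without overlap. The period gene Per3 had 2279.8, 2225, 1412 and 1869.6 without antibody and 3027, 4163, 3095 and 3485 with it (0.84 ± 0.17, adjusted p = 0.0661, limma). Tef, an output factor, had 6389, 6304, 4498 and 4987 against 8091, 9539, 8488 and 8634 (0.66 ± 0.19, adjusted p = 0.153). In both genes the antibody libraries were all higher, and untreated replicate 3 was the lowest library.

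Arntl, of the driving factors, had 209, 270.2, 487 and 322 without antibody and 183, 66.5, 142 and 115 with it (-1.36 ± 0.40, adjusted p = 0.16, limma). Clock, its partner, was at -0.39 ± 0.11 (adjusted p = 0.144) and lay without overlap. Dbp, an output factor, and Npas2, a relative of Clock, were named after their values were seen. Dbp was at 1.09 ± 0.33 with groups that overlapped and Npas2 at -1.22 ± 0.37 with groups that did not. On the control diet these genes had the same signs: 1.30 for Per3, 1.32 for Dbp, -1.16 for Arntl, -0.54 for Clock and -1.12 for Npas2. The labels give no time of collection, and its part in these values was not tested.

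The promoters of Per3 and Tef are shown because each holds a known clock sequence and their genes were high in the same libraries. The D-box, searched as TTATGTAA, binds the factors of Tef, Hlf and Dbp and is present at 2 places before Per3, the 1 gene with it among 17 listed clock genes that have windows (0.819% of all windows). The E-box, searched as CACGTG, binds Arntl with Clock or Npas2, and 5 of those 17 genes have it, Tef among them (6.02% of all windows). Capitals mark the D-box in Per3 (chr4:151044666-151044915, minus strand) and the E-box in Tef (chr15:81802423-81802672, plus strand, 1 of its 2 starts).
Per3: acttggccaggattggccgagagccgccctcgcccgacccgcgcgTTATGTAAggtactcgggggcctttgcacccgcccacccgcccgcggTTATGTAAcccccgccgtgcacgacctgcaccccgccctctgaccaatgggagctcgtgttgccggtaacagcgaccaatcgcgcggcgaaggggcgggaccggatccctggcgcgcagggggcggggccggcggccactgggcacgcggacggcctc
Tef: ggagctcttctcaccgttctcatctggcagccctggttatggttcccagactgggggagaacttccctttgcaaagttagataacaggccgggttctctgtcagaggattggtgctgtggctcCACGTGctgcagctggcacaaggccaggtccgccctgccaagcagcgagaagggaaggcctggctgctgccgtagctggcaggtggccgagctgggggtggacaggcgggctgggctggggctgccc

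**Figure D4:**
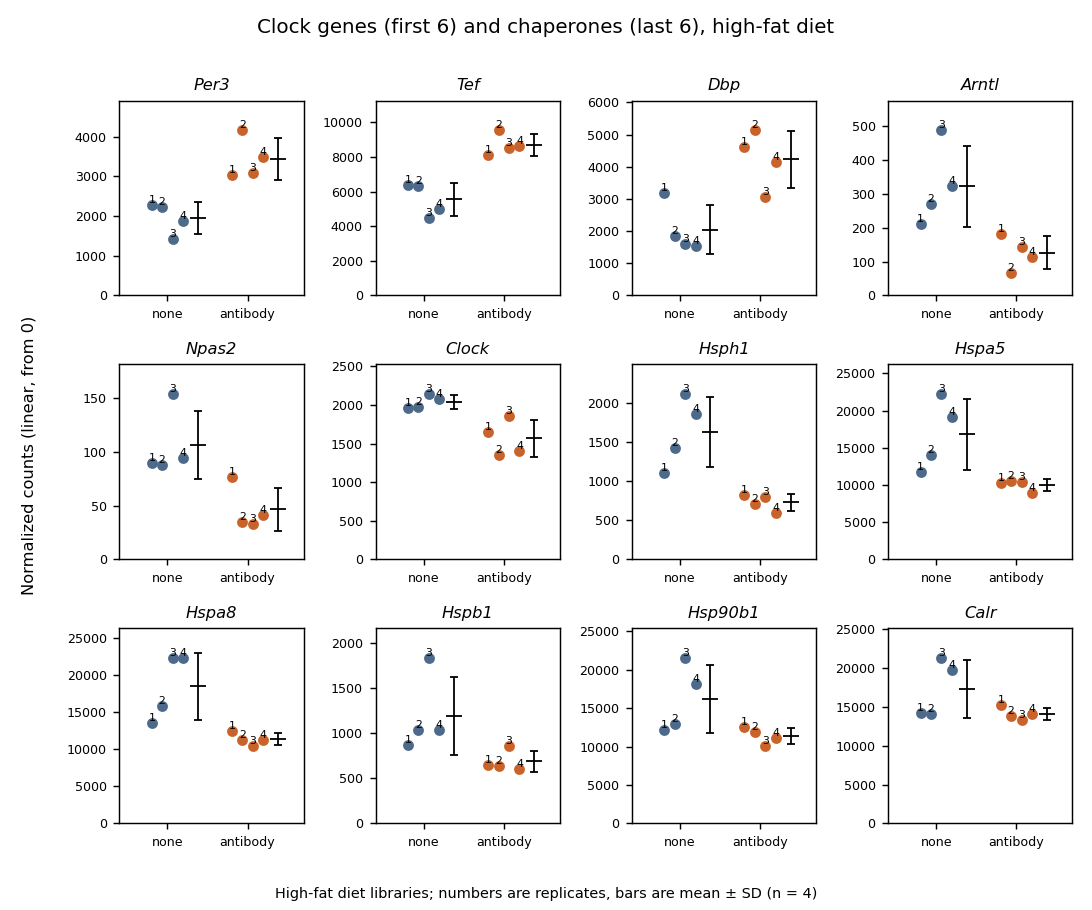
Normalized counts (linear axes from 0) of 6 clock genes and 6 chaperone genes in the 8 high-fat libraries, with replicate numbers and mean ± SD (n = 4). Per3 and Tef are higher in all antibody libraries, Arntl is lower, and Hspa5 is highest in untreated replicates 3 and 4 (22198 and 19096).

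Sterol genes were mostly higher in the antibody libraries. Of 23 tested cholesterol genes 0 passed by limma, 20 were above 0 (50.1% of all genes were), 7 were higher and 0 lower at an unadjusted p under 0.05, and in 4 the antibody libraries all lay above (median 0.26). At that level 6.57% of all genes tested were higher, and 3.91% lay wholly above. Without antibody replicate 2 or 3, 4 and 3 genes were higher at that level, and the median was 0.0757 without antibody replicate 3 and 0.1461 without untreated replicate 4. With the muscle covariate the median of the Cholesterol biosynthesis list was 0.0667 and 1 gene was higher, and on the control diet the median was -0.13 with 2 higher and 3 lower. Fdft1, squalene synthase, had 798, 745, 620.0 and 722 without antibody and 1224, 1469.6, 1054 and 1324 with it (0.81 ± 0.17, adjusted p = 0.0661, limma). The groups did not overlap, and antibody replicate 3 lay closest to the untreated libraries. The desaturase Sc5d and the sterol carrier Stard4 were at 0.84 ± 0.23 and 0.63 ± 0.18 without overlap.

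All 23 tested genes of fatty acid synthesis were above 0, with 0 past the threshold by limma and 3 higher at an unadjusted p under 0.05 (median 0.29), or 1 to 6 with 1 library left out. Among all genes tested 50.1% were above 0 and 6.57% were higher at that level. Srebf1, the factor that drives this pathway, had 13909, 8915, 9758 and 11309 without antibody and 21524, 27080, 17634 and 16686 with it (0.91 ± 0.26, adjusted p = 0.149, limma). Mlxipl, the glucose-sensing factor ChREBP, was at 0.65 ± 0.27 without overlap (adjusted p = 0.302). The synthase Fasn had 196660, 101010, 95628 and 64047 against 142910, 133980, 121740 and 229270. Untreated replicate 1 was within the antibody range for Fasn, and so it was in the list mean (0.355, antibody libraries -0.14 to 0.447). On the control diet 8 of the 23 were above 0. With the muscle covariate 14 were above 0 and the median was 0.06.

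Genes of triglyceride assembly and glycogen gave single large values. Agpat2, an acyltransferase of the glycerol pathway, had 16265, 7848, 9516 and 9179.9 without antibody and 20471, 20955, 18955 and 17546 with it (0.92 ± 0.31, adjusted p = 0.205, limma). The acyltransferase Dgat2 was at 0.69 ± 0.18 (adjusted p = 0.142) with overlap. Ppp1r3b, which brings protein phosphatase to glycogen, had 662, 345, 259.5 and 321 against 1493, 1344, 1232 and 832 (1.69 ± 0.72, adjusted p = 0.316). Oxidative phosphorylation genes lay above 0 in 29 of 31 and fatty acid oxidation genes in 21 of 22, each with 0 called by limma and 0 at an unadjusted p under 0.05 (medians 0.11 and 0.27). With 1 library left out these medians ran from 0.05 to 0.23 and from 0.17 to 0.44, lowest without untreated replicate 2. When the muscle covariate was added these medians were -0.15 and -0.08. The means of both lists overlapped between the groups. Antibody replicate 3 was the lowest library (-0.308 and -0.46), and untreated replicate 1 was at 0.244 and 0.42. On the control diet 0 of 31 and 2 of 22 genes were above 0. Of all genes tested 50.1% were above 0 on the high-fat diet.

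The genes of PDGF signalling itself were not among the calls. Of 13 tested ligands, receptors and activating proteases 0 passed by limma and 0 had an unadjusted p under 0.05 (median -0.02). Pdgfc, whose product the antibody binds, had 612, 726, 746 and 728 normalized counts without antibody and 702, 615, 729 and 546 with it (-0.12 ± 0.18, adjusted p = 0.828, limma). The groups overlapped, and the transcript does not show how much free protein was left. Pdgfra, the receptor, had 2774, 3687, 4648 and 4292 against 3519.5, 3174, 2689.6 and 3407 (-0.25 ± 0.16, adjusted p = 0.535). The ligands Pdgfa, Pdgfb and Pdgfd were at 0.13, 0.02 and 0.05, the receptor Pdgfrb at 0.05, the protease Plat at -0.27, the urokinase receptor gene Plaur at -0.41 and the co-receptor Nrp1 at 0.14 (adjusted p of 0.496 to 0.972). Signs of changes this small turned with single libraries for Pdgfa, Pdgfb, Pdgfd and Pdgfrb.

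Regulators of adipocyte differentiation lay on both sides of 0. Of 25 tested transcription factors 0 passed by limma, 6 were higher and 4 lower at an unadjusted p under 0.05 (median 0.01), and 2 were lower without antibody replicate 2, 3 or 4 or untreated replicate 4. Over all genes tested 6.57% were higher and 6.92% lower at that level. Zfp467, a zinc finger factor that favours adipocyte over bone fate, had 1211, 902, 634 and 757 without antibody and 1691, 1581, 1577 and 1453 with it (0.89 ± 0.19, adjusted p = 0.0769, limma). Its groups did not overlap, while those of Pparg, the central factor of fat cells, did (6959, 4336, 3474 and 5924 against 7625, 8436, 7483 and 4684). Pparg was at 0.47 ± 0.25 and Cebpa at 0.32 ± 0.13 (adjusted p = 0.449 and 0.275). Of 25 mature adipocyte genes 0 passed by limma and 2 were higher at an unadjusted p under 0.05, the insulin-responsive Trarg1 (0.61 ± 0.20) and Plin1 (0.33 ± 0.13). Adipoq was at 0.04 ± 0.11 and the leptin gene Lep at 0.46 ± 0.37. Ucp1, the uncoupling protein of beige fat, was at 6053, 14.8, 159 and 30.2 without antibody and at 6111, 835, 47.9 and 4978 with it, so that the groups overlapped widely (2.84 ± 1.96, adjusted p = 0.573, limma). With the muscle covariate its log2 change was -0.1151.

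Mast cell and eicosanoid genes lay on both sides of 0. Of 15 tested genes of this list 1 rose (Alox12), 3 were higher and 4 lower at an unadjusted p under 0.05, and in 3 the antibody libraries all lay above (median -0.09). Among all genes tested 6.57% were higher and 6.92% lower at that level, and 3.91% lay wholly above. The count of lower genes was 2 without any 1 of untreated replicates 2, 3 and 4 or antibody replicates 3 and 4. Alox15, a second lipoxygenase, had 4.15, 3.77, 1.94 and 8.21 without antibody and 29.5, 64.7, 36.6 and 33 with it. The untreated values lie below 1 CPM-equivalent (2.98 ± 0.65 on the log2(value + 1) scale, adjusted p = 0.0769, limma). On either diet only antibody libraries were above it. Alox15 was thus tested only because it was high there, so it adds no independent support to the list counts. Hpgds, which makes prostaglandin D2, had 183, 221, 179 and 187 against 423, 256, 259 and 278 (0.63 ± 0.15, adjusted p = 0.107). The tryptase gene Tpsb2 had 636, 929, 945 and 897 against 665, 636, 607 and 623 (-0.41 ± 0.13, adjusted p = 0.165). Untreated replicate 1 was like the antibody libraries in that gene.

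Macrophage genes and inflammatory genes were lower mainly against untreated replicates 3 and 4. Of 25 macrophage genes 0 passed by limma, 23 were below 0, 5 were lower and 0 higher at an unadjusted p under 0.05, and in 0 did the groups stay apart (median -0.24). At that level 6.92% of all genes tested were lower and 6.57% higher. The count of lower genes was 8 without untreated replicate 1 and 3 without untreated replicate 3, with medians of -0.44 and -0.10, and without both replicates 3 and 4 the median was 0.05. The haemoglobin scavenger receptor gene Cd163 had 4464, 7237, 7969 and 6802 without antibody and 4256, 3756, 4686 and 4783 with it, and the hyaluronan receptor gene Lyve1 1505, 2971, 5436 and 4700.3 against 1869, 1765, 1698 and 1697. Untreated replicate 1 was within or below the antibody range in both. The macrophage markers Adgre1 (1478 to 2285 without antibody against 1462 to 2334 with it) and Cd68 (1622 to 2738 against 1812 to 2780) overlapped. So did Csf1r (5954 to 8102 against 6316 to 7644) and C1qa (5507 to 11038 against 5640 to 7990). Of 25 genes of chemokines, cytokines and the acute phase 0 passed by limma, 10 were lower and 2 higher at an unadjusted p under 0.05 (median -0.49). Without untreated replicate 3 or 4, 6 were lower, and without both 1 was lower and the median was -0.14. Socs3, a feedback inhibitor of cytokine signalling, had 228, 276, 436 and 1167 against 225, 164, 225 and 163 (-1.14 ± 0.36, adjusted p = 0.18). Nfkbia, the inhibitor of NF-kappa-B, was at -0.60 ± 0.18, and the pentraxin Ptx3 at -2.06 ± 0.61 with untreated replicate 1 (18.9) in the antibody range.

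B cell genes were mostly higher. Of 7 tested 0 passed by limma, 6 were above 0 and 2 were higher at an unadjusted p under 0.05 (median 0.54, and 0.32 without untreated replicate 2). The share of all genes tested that was higher at that level was 6.57%. The receptor gene Cd180 had 156, 171, 159.7 and 160.0 without antibody and 319, 254, 325 and 225 with it (0.77 ± 0.16, adjusted p = 0.0638, limma). The antigen receptor chain gene Cd79b had 28.9, 24.7, 14.7 and 16.6 against 45.6, 40.1, 33.7 and 39.1 (0.91 ± 0.26, adjusted p = 0.16). Both were higher in all antibody libraries. T cell genes had a median of 0.003 over 16 tested, with 0 at an unadjusted p under 0.05.

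Schwann cell and nerve genes were lower. Of 23 tested 1 fell (Kcna1), 22 were below 0, 8 were lower and 0 higher at an unadjusted p under 0.05, and in 5 the antibody libraries all lay below (median -0.47). At that level 6.92% of all genes tested were lower, and 3.47% lay wholly below. Drp2, a myelin scaffold protein, had 293, 489, 433 and 829 without antibody and 214, 218, 256 and 220.5 with it (-1.07 ± 0.31, adjusted p = 0.16, limma). Untreated replicate 4 was the highest, and the antibody libraries lay close together. With the muscle covariate the list median was -0.38, and 1 gene was then lower at an unadjusted p under 0.05. The count was 5 without antibody replicate 1 or untreated replicate 2, 4 without antibody replicate 4 or untreated replicate 4, and 2 without untreated replicates 3 and 4. On the control diet the list median was 0.04.

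Genes of vessel walls and growth factors included some without overlap, in both directions. Of 15 tested mural genes 0 passed by limma, 8 were above 0 and 7 below (median 0.01). In 2 the antibody libraries all lay above and in 1 below. Of 16 VEGF and angiopoietin genes 0 passed, 13 were above 0, and 4 were higher and 2 lower at an unadjusted p under 0.05. In 3 of these 16 the antibody libraries all lay above and in 1 below. Over all genes tested 3.91% lay above and 3.47% below, and 6.57% were higher and 6.92% lower at an unadjusted p under 0.05. Kcnj8, the potassium channel of pericytes, had 309.7, 313, 197 and 299 without antibody and 373, 525, 562 and 514 with it (0.82 ± 0.17, adjusted p = 0.0665, limma). Cspg4, the pericyte proteoglycan NG2, was at 0.61 ± 0.18, and Rbp7, a retinol-binding protein of endothelium, at -0.87 ± 0.18 (adjusted p = 0.16 and 0.0638). The secreted factors Angptl2 and Vegfc were at 0.52 ± 0.11 and 0.53 ± 0.18, and Pgf at -0.70 ± 0.23 (adjusted p = 0.187, limma). These genes had groups that did not overlap. In the list of TGF-beta, BMP and activin genes 0 of 29 passed by limma, 7 were higher and 1 lower at an unadjusted p under 0.05 (median 0.10), with the receptor Bmpr1a at 0.33, the BMP target Id3 at 0.68, the activin subunit Inhbb at 0.55 and the ligand Bmp4 at 0.40. In those 4 genes all antibody libraries lay above, and 3 or 4 genes of the list were higher without untreated replicate 3 or 4. Wnt5a, a Wnt ligand, was at 0.48 ± 0.11 and Axin2, a target of Wnt signalling, at 0.82 ± 0.23. Spry1, a feedback inhibitor of growth factor signalling, had 534, 573, 499 and 586 against 289, 350.5, 410.4 and 436 (-0.57 ± 0.13, adjusted p = 0.0883).

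Of 24 adipose progenitor genes 0 passed by limma, 19 were below 0, and 2 were higher and 3 lower at an unadjusted p under 0.05 (median -0.20, and 0.03 without untreated replicates 3 and 4). With 1 library left out the median ran from -0.27 to -0.11 and the count of lower genes from 1, without antibody replicate 4, to 8, without untreated replicate 1. Meox2, a homeobox factor, was at 0.57 ± 0.14 and the integrin chain Itgb1 at -0.20 ± 0.07. Of 32 extracellular matrix genes 0 passed by limma and 3 were lower at an unadjusted p under 0.05 (median -0.10). Among all genes tested 6.57% were higher and 6.92% lower at that level. With 1 library left out, 1 to 6 were lower and the median ran from -0.21, without untreated replicate 1, to -0.06, without antibody replicate 2. Thbs1, thrombospondin, had 518, 942, 862 and 1616 without antibody and 234, 271, 458 and 607 with it (-1.31 ± 0.41, adjusted p = 0.171, limma). Antibody replicate 4 was above untreated replicate 1.

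Genes of chromatin and transcription formed the one list with several calls. Of 37 tested 3 rose (Bahcc1, Mecom and Wdr6), 33 were above 0, 14 were higher and 0 lower at an unadjusted p under 0.05, and in 10 the antibody libraries all lay above (median 0.13). Over all genes tested 6.57% were higher and 6.92% lower at that level, and 3.91% lay wholly above. The list was drawn up with those 3 calls known, so their count in it is no independent evidence. Arid1a, a subunit of the BAF remodelling complex, had 2498, 2521, 2417 and 2667 without antibody and 2865, 2985, 3075 and 3065 with it. That gene differed little in level, 1.19-fold, with narrow groups that did not overlap (0.25 ± 0.05, adjusted p = 0.0661, limma). Of 29 p53 targets and cell cycle inhibitors 1 fell (Cdkn1a), and 3 were higher and 6 lower at an unadjusted p under 0.05 (median -0.12), or 3 lower without antibody replicate 2. Phlda3, an inhibitor of AKT and a p53 target, was higher in all antibody libraries (0.97 ± 0.24, adjusted p = 0.105).

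The control diet gave a second look at the directions, in a contrast with no library in common. Its libraries did enter the spread by which the 11 genes were called, so overlap there is no independent check. With only the 8 high-fat libraries in the fit, 2 of the 11 passed. On the control diet 14 genes passed the threshold (0.0987%, or 0.0564% as higher). The 11 genes called on the high-fat diet all had the same sign there. In 7 of the 11 the control-diet groups did not overlap either: Zbtb16, Cdkn1a, Bahcc1, Wdr6, Mecom, BC037039 and Alox12. Over all genes tested there 3.43% lay wholly above and 3.33% wholly below. The control-diet log2 changes were -1.30 for Zbtb16, -1.23 for Cdkn1a and 1.13 for Bahcc1, but -0.16 for Tppp3 and -0.34 for Elmod1. Muscle RNA was higher with antibody on that diet and lower in most antibody libraries on the high-fat diet, and 0 of the 11 passed on the high-fat diet with the muscle covariate in the model. Of the 555 genes whose antibody libraries all lay above on the high-fat diet, 82.7% had the same sign on the control diet. Outside the muscle list 73.6% of the 473 that lay below did so, and 57.5% of all 14108 tested genes. By a test of the difference of the antibody effect between the diets 0 genes passed by limma, with 877 (6.18%) at an unadjusted p under 0.05, 2.46% of genes with the higher effect on the high-fat diet and 3.72% with the lower. Elmod1, with a difference of -1.60 ± 0.39 (adjusted p = 0.264, limma), did not pass this test either.

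**Figure D5:**
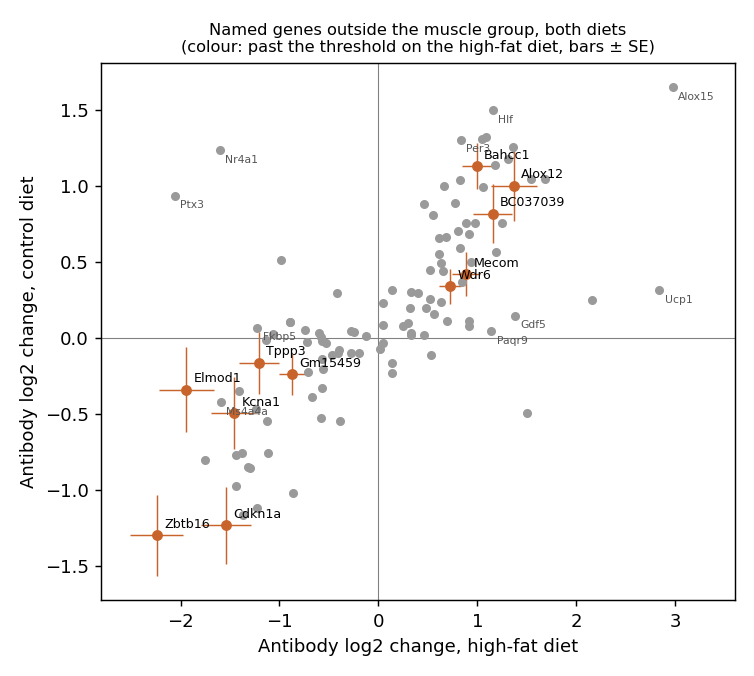
Antibody log2 change on the high-fat diet (horizontal) and on the control diet (vertical) of the genes named in the text outside the muscle group. Coloured points with ± SE bars are the 11 genes past the threshold on the high-fat diet. All 11 lie in the lower left or upper right, as for Zbtb16 at -2.24 and -1.30, while Nr4a1 and Ptx3 lie in the upper left.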

How the data were processed

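The 8 high-fat libraries (4 untreated, 4 antibody) and the 8 control-diet libraries of mouse inguinal fat were read from 1 deposited table of normalized counts per gene, a signal that the authors had already scaled. The values are not whole numbers, whole reads were not recovered from them, and the depth of each library is therefore unknown. The submitters' processing notes name fastp 0.20.1, STAR 2.7.0e, featureCounts, Subread 1.6.2, limma 3.42.2 and the builds mm10 and GRCm38, without their roles. The scaling method, and whether reads were counted by strand, are not stated in these sources. Exons of 13 of the 127 genes considered for the text overlap a tested gene on the opposite strand: Adamts4, Agpat2, Alkal2, BC037039, Cd180, Cebpa, Dbp, Fdft1, Hsp90b1, Pdgfa, Pdia6, Srebf1 and Wdr6. Those of Hsp90b1 also overlap 1 on the same strand, and these values are uncertain to that extent.

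Values were taken as log2(value + 1). A fold change on that scale understates the change of low genes. Genes above 24.49 normalized counts (1 CPM-equivalent, a millionth of the typical total) in at least 4 libraries were kept, 14189 of 16091. One limma model (3.58.1, R 4.3.3, trended variance, 12 residual and 3.07 prior degrees of freedom) was fitted to all 16 libraries in 4 groups, and p-values were adjusted by Benjamini-Hochberg over all genes tested, with a threshold of 0.05. The procedure was tested on simulated data. Since no label ties a library to an animal of its own, the p-values reflect only how far these samples spread, and that spread may be technical. The muscle score is a library's mean over the 81 muscle genes.

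Genes named are all that passed the threshold, the 12 highest and 12 lowest log2 changes among genes outside the muscle list without overlap at an unadjusted p under 0.01 and a mean of at least 4 CPM-equivalents in 1 group, up to 4 members of each of 51 lists with the smallest p, and a few fixed genes of PDGF signalling and fat. Exceptions are Dbp, Npas2, Hsp90b1, Pdia6, Calr, Cxcl14, Adamts4, Slc10a6, Fam107a and Ifi205, named after their values were seen, and 1 gene among the 12 highest is not reported here. The comparison and the lists were chosen with earlier results of these data known. Coordinates are those of GENCODE vM21 on GRCm38, in which 14185 of the tested identifiers were found, and promoters those of RefSeq. Figures were drawn with matplotlib 3.10.9 in Python 3.11.15. Alternatives were other scalings, pseudocounts, filters and sample sets, a muscle covariate, a replicate block and each library left out.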

Additional observations from a re-analysis of the deposited data

Results flagged for a closer look

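In 18 of 256 groups of 4 libraries (7.03%) 1 library lay far from the other 3, where chance gives about 1 in 20. Values are log2(value + 1) of that library. Untreated replicate 2 was apart in muscle RNA at 3.73% of the total, and in Alpk3 (8.994), Cap2 (9.508), Pdgfa (8.099) and Vegfc (5.382). Antibody replicate 2 was apart in muscle RNA at 0.077%, and in Trim63 (2.985), Ckmt2 (3.154) and Ano5 (3.569), which were listed at 0 in the other 3 antibody libraries. Untreated replicate 3 was low in Kcnj8 (7.628) and Fam107a (7.606) and high in Npas2 (7.275). Untreated replicate 1 was low in Pdgfc (9.26) and Tpsb2 (9.315). Antibody replicate 3 was low in BC037039 (5.875) and high in the nerve genes Drp2 (8.007) and Cdh19 (7.055), and antibody replicate 1 was high in Hpgds (8.726).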

How the results depend on the processing

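The main count was 11 genes, 5 higher and 6 lower. With each of the 16 libraries left out it ranged from 1 to 271, with 0 to 126 higher and 1 to 145 lower. It was 15 (11 higher) with quantile normalization, 17 (11 higher) with totals without the 10 most abundant genes, 7 (3 higher) above 4 CPM-equivalents, 4 (2 higher, 2 lower) with only the 8 high-fat libraries, 0 (0 higher, 0 lower) with the muscle covariate and 1 (0 higher, 1 lower) without untreated high-fat replicates 3 and 4, an alternative chosen after seeing the data. The fall list without genes that follow muscle was also added then. Untreated and antibody libraries share replicate numbers, and with a replicate block 2 genes passed in 16 libraries (1 higher, 1 lower) and 42 in the 8 high-fat libraries (36 lower), 1 of them among the 11. The 4 same-numbered pairs correlated at 0.176, 0.469, -0.059 and -0.215 in their deviations, and differently numbered ones at -0.414 to 0.324. Whether equal numbers mark a pair cannot be settled by so few values. The count for the difference between diets, 0 by limma with 877 genes at an unadjusted p under 0.05, was 1 with the replicate block and 0 to 1 with each library left out. The 11 genes kept their direction wherever tested. Ucp1, at 2.84, went to -0.1151 with the muscle covariate. Signs also turned for genes near 0: with that covariate Pdgfc (0.0019), with quantile normalization Scd1 (0), without untreated replicates 3 and 4 Plat (0.1099), Pdgfd (-0.0687) and Pdgfb (-0.2082), and with 1 library left out Pdgfa (from -0.0054 to 0.2216), Pdgfrb (from -0.0171 to 0.1285), Pdgfd (from -0.0354 to 0.104) and Pdgfb (from -0.0839 to 0.1192). The cause was not tested. Depth is unknown, so the counting error of low genes such as Elmod1 and Alox15 cannot be given.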

Other observations

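The B cell genes Cd79a and Ms4a1 lay in the same order as Cd180 and Cd79b. Both were too low to be tested and were named after their values were seen. The B cell list has 7 genes too low to be tested, which were not compared as a set. Cd79a, a chain of the antigen receptor, was at 0.943 to 15.4 normalized counts in the 4 untreated high-fat libraries and at 16.6 to 24.4 in the 4 antibody libraries. Ms4a1, which codes for CD20, was at 0.886 to 8.23 against 10.4 to 19.3. In both genes the groups did not overlap, at levels near or below 24.49, the value of 1 CPM-equivalent.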
